A study of Mus musculus with 16 samples.

Results

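Macrophages given heme bound to albumin were compared directly with macrophages given lipopolysaccharide (LPS), both after 8 h. Of the 16 arrays of the series, 8 enter this comparison: the 4 whose titles name heme-albumin at 200 µM, and the 4 whose titles name LPS at 10 ng/mL. All cells were mouse macrophages grown from stem cells, and the design text counts 4 independent biological replicates per group, lettered a to d. The 4 untreated control arrays (0 h) are used only to place the values of both stimuli side by side. Each array carried 2 colours: red was the sample and green was RNA of untreated cells, so every value below is a log2 ratio of the sample to that untreated reference. A difference is heme-albumin minus LPS on the log2 scale, so 1 means 2-fold higher after heme-albumin and a negative value means lower. Because both groups were cultured for the same 8 h with a stimulus, this difference is free of the gap in time that separates each stimulus from the 0 h control. Cells given albumin alone were not analysed here, so heme and its carrier cannot be told apart.

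Heme is the iron-holding ring of haemoglobin. A macrophage that takes it up breaks it down with heme oxygenase, stores the iron in ferritin or exports it through ferroportin, and heme releases the repressor BACH1 from the same DNA elements that the antioxidant factor NRF2 binds. LPS, a cell wall component of Gram-negative bacteria, is sensed by Toll-like receptor 4, which activates NF-kB and, through interferon beta made by the cell itself, the interferon-stimulated genes. Macrophages given LPS are also known to lower ferroportin and to leave the cell cycle.

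The cells carried the macrophage markers: 8 of 9 on the array (Adgre1, Csf1r, Mertk, Cd14, Itgam, Fcgr1, Lyz2 and Aif1) were above background on all 8 arrays. The 20540 probes above background on every array of at least 1 of the 2 groups gave 12389 genes to test. Replicates of a group correlated at 0.780 to 0.891 after heme-albumin and at 0.931 to 0.984 after LPS over these 12389 genes. Over the same genes the log2 ratios of an array had an SD of 0.431 to 0.504 after heme-albumin against 1.32 to 1.43 after LPS. Replicates a and b were scanned on one day and c and d on another. Scan day and replicate set therefore cannot be told apart, and a difference by day below is also one between these sets. The LPS arrays stood apart by scan day: 601 of 12144 genes were at least 2-fold apart between a, b and c, d with no overlap, against 107 of 12200 genes for heme-albumin. Each letter had a slide of its own, and each position on a slide held 1 group, so position and group cannot be told apart. Of 159 called genes named by the rule, 26 shrank by more than 1.5 times on the log2 scale when normexp background correction and loess normalisation replaced the scanner's own processing, written as normexp below, and that value is given wherever such a gene is described. A gene dim in 1 group passed the filter only through the group where it was bright, so it had to differ, and the counts of list members below describe the measured members and are read against the share called among all genes.

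The 2 stimuli left the macrophages far apart. A gene was called when its adjusted p was under 0.05 (limma's moderated test, Benjamini-Hochberg adjustment over all 12389 genes) and its groups differed at least 2-fold. By that rule 3741 genes differed, 30.2% of those tested: 2018 (16.3%) were higher and 1723 (13.9%) lower after heme-albumin. Over all 39429 non-control probes, with no filter on dim signals, 6367 were called (16.1%). A wide gap was more often on the lower side: 375 genes were at least 8-fold lower after heme-albumin and 168 at least 8-fold higher. The ratios of the 4 and 4 arrays did not overlap in 8882 genes (71.7%), among them 2007 of the 2018 higher and 1692 of the 1723 lower genes. The median gene had a difference of 0.087 and an SE of 0.105, and for 7095 genes (57.3%) the 95% interval of the difference lay within 2-fold. With replicates a and b alone 3528 genes were called, and with c and d alone 4156. All 3741 genes had the same sign on both days. Because they were called from both days together, and most had no overlap between groups, the choice of genes largely fixed this. In 424 of the 3741 the size of the difference was at least 2-fold apart between the days.

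Set beside the 0 h control, most of this gap lay on the LPS side. Heme-albumin raised 260 genes (2.1%) and lowered 113 (0.912%) against control, and LPS raised 1794 (14.5%) and lowered 2004 (16.2%). Both comparisons share the same control arrays, and both differ from control by 8 h of incubation as well as by the stimulus. Of the 2018 genes higher after heme-albumin than after LPS, 1671 were called lower than control after LPS and were not called after heme-albumin. Another 76 were called above control after heme-albumin and not after LPS, and 221 were called against control after neither. Of the 1723 genes lower after heme-albumin, 1444 were called above control after LPS alone, 19 below control after heme-albumin alone, and 144 after neither. The remaining genes of both sides were moved by both stimuli, in the same or in opposite directions, and are described further on.

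**Figure D1:**
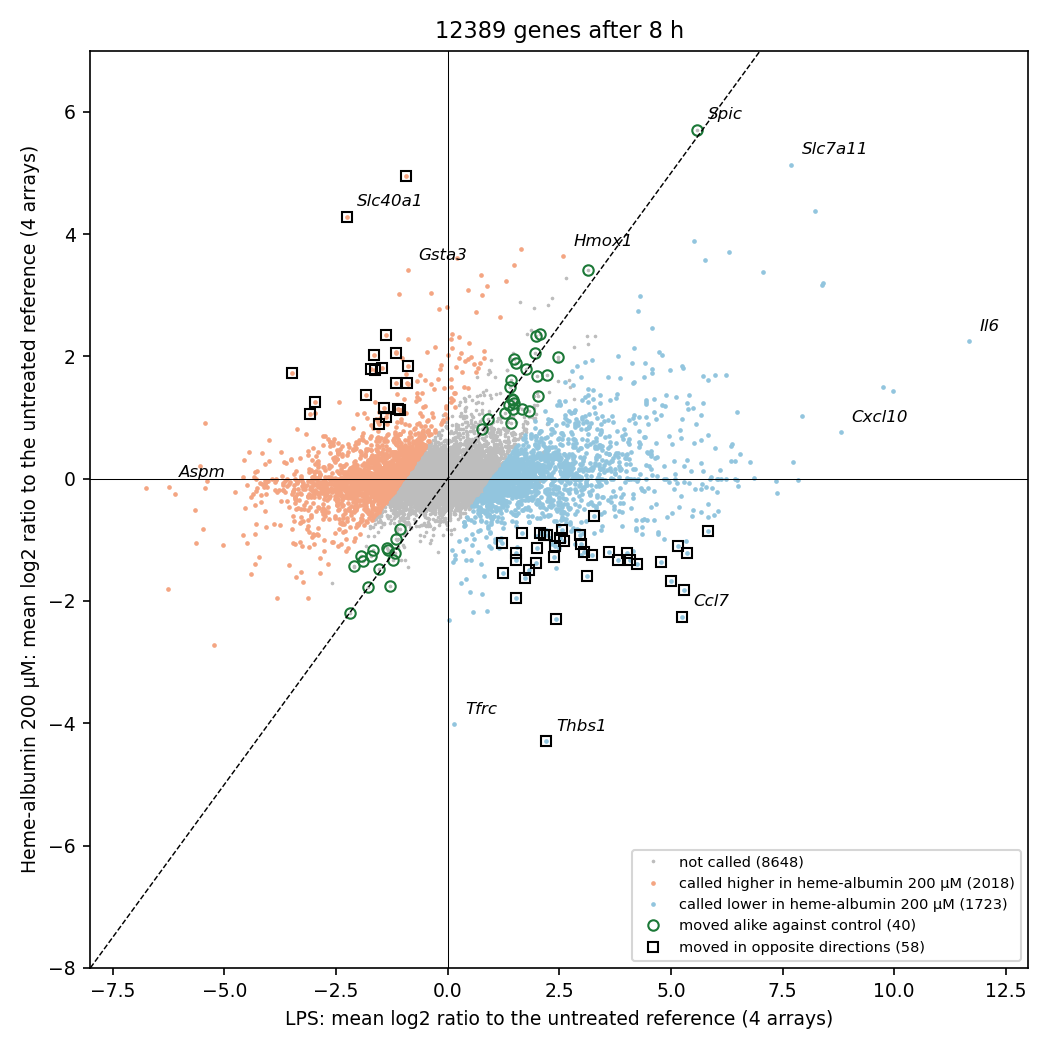
Mean log2 ratio to the untreated reference of 12389 genes, with heme-albumin 200 µM on the vertical axis and LPS on the horizontal axis (4 arrays each); the dashed line marks equal values. Orange points are the 2018 genes higher and blue points the 1723 genes lower after heme-albumin, green circles mark the 40 genes moved alike and black squares the 58 genes moved in opposite directions; the cloud is stretched along the LPS axis, with Il6 (2.25 after heme-albumin, 11.68 after LPS) at its right end and Slc40a1 (4.29 and -2.26) at the upper left.

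Of 28 listed inflammatory cytokines and mediators 24 were measured, and these 24 were lower after heme-albumin than after LPS (13.9% of all tested genes were). Above background on all 8 arrays were 14 of them, while the other 10 were measured through the LPS arrays. The 24 had a median difference of -3.88 against 0.087 over all genes. Il6, the cytokine that drives the acute phase response, had log2 ratios of 1.47, 0.995, 3.91 and 2.65 after heme-albumin against 11.63, 11.29, 12.34 and 11.46 after LPS. The groups were far apart, with a difference of -9.43 ± 0.593 (SE, n = 4 and 4, adjusted p = 2.12e-06), although the heme-albumin spots were above background on only 3 of 4 arrays. Il1b, the inflammasome-processed interleukin, stood at 0.055, -0.29, 0.27 and 0.013 after heme-albumin against 7.09, 6.90, 6.71 and 6.71 after LPS. After heme-albumin it thus lay around the level of the untreated reference, and the difference was -6.84 ± 0.135 (SE, n = 4 and 4, adjusted p = 7.17e-09). Ptgs2, the inducible cyclooxygenase of prostaglandin synthesis, had 0.98, 1.91, 2.16 and 0.72 after heme-albumin, above background on 2 of 4 arrays, against 10.05, 9.94, 9.97 and 9.92 after LPS. Ifnb1, interferon beta itself, had 0, -0.20, 1.87 and -0.54 after heme-albumin, also above background on 2 of 4, against 5.82, 6.35, 7.29 and 6.31 after LPS; its difference of -6.16 shrank to -2.90 with normexp background correction. Replicate c was the highest heme-albumin array for Il6, Ptgs2 and Ifnb1, and no heme-albumin array reached the lowest LPS array. Il10, the cytokine that restrains macrophages, differed by -4.48 ± 0.287, with heme-albumin spots above background on 3 of 4 arrays.

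Part of this list also rose after heme-albumin, but to a lower level. Tnf, the early cytokine of macrophage activation, had 1.90, 2.03, 2.39 and 2.20 after heme-albumin against 4.08, 4.14, 4.23 and 4.25 after LPS, a difference of -2.05 ± 0.109 (SE, n = 4 and 4, adjusted p = 8.32e-07). Acod1, the enzyme that makes itaconate, had 3.68, 3.56, 3.95 and 3.66 after heme-albumin against 6.38, 6.20 and 6.31 after LPS (replicates b to d; the LPS spot of a was an outlier and left out), a difference of -2.59 ± 0.105. Against the 0 h control both were called higher after both stimuli, Tnf by 2.11 after heme-albumin and 4.16 after LPS, and Acod1 by 3.64 and 6.23. Nos2, the inducible nitric oxide synthase, was called only after LPS: its ratios were 0.068, 0.035, -0.12 and 0.30 after heme-albumin against 4.73, 4.84, 5.35 and 5.46 after LPS. For Il1a the heme-albumin spots were not above background on any of the 4 arrays. Its ratio differed by -6.05, and its red signal was at least 932-fold lower after heme-albumin. Of Il1f6 the ratio differed by -6.13 and red signal was at least 251-fold lower, and of Edn1, the vasoconstrictor endothelin, the ratio differed by -6.42 (-4.16 with normexp) and red signal was at least 118-fold lower. Each bound ("at least") in this text compares the red channel alone with the lowest signal that counted as above background, and is no bound on the ratio. Green was also lower after heme-albumin for these 3 genes, by -5.97, -3.94 and -2.24, so the bound is larger than the ratio's own fold, as it was for 15 of 185 genes with a bound. The bounds also rest on the scaling of red signal between arrays. Both groups carried the sample in red, and with 1 dye orientation an effect of the dye was not tested.

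For several of these genes the green channel, which holds untreated RNA on every array, was not equal between the groups, and the ratio then gives a smaller gap than the sample channel. For Nos2 the red signal differed by -10.16 and the green signal by -5.14, which leaves the ratio difference of -5.03. Il1b differed by -10.31 in red and -3.47 in green, and Tnf by -4.47 in red and -2.42 in green. Cxcl10 went the other way, with -5.83 in red and 2.22 in green, so its ratio difference is larger than the red one. Over all genes the green channel moved little, with a median absolute difference of 0.0539, and 193 genes reached 2-fold there. Among the 375 genes at least 8-fold lower after heme-albumin, green was at least 2-fold lower in 71 and at least 2-fold higher in 8; among the 168 at least 8-fold higher, 2 had a 2-fold gap in green. With the red channel alone 3802 genes were called, and 3565 of the 3741 kept their side. The labels do not settle whether each array had its own reference RNA or a shared pool, or whether signal passes between the channels. The part of the green difference in the ratios was not tested beyond these values.

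**Figure D2:**
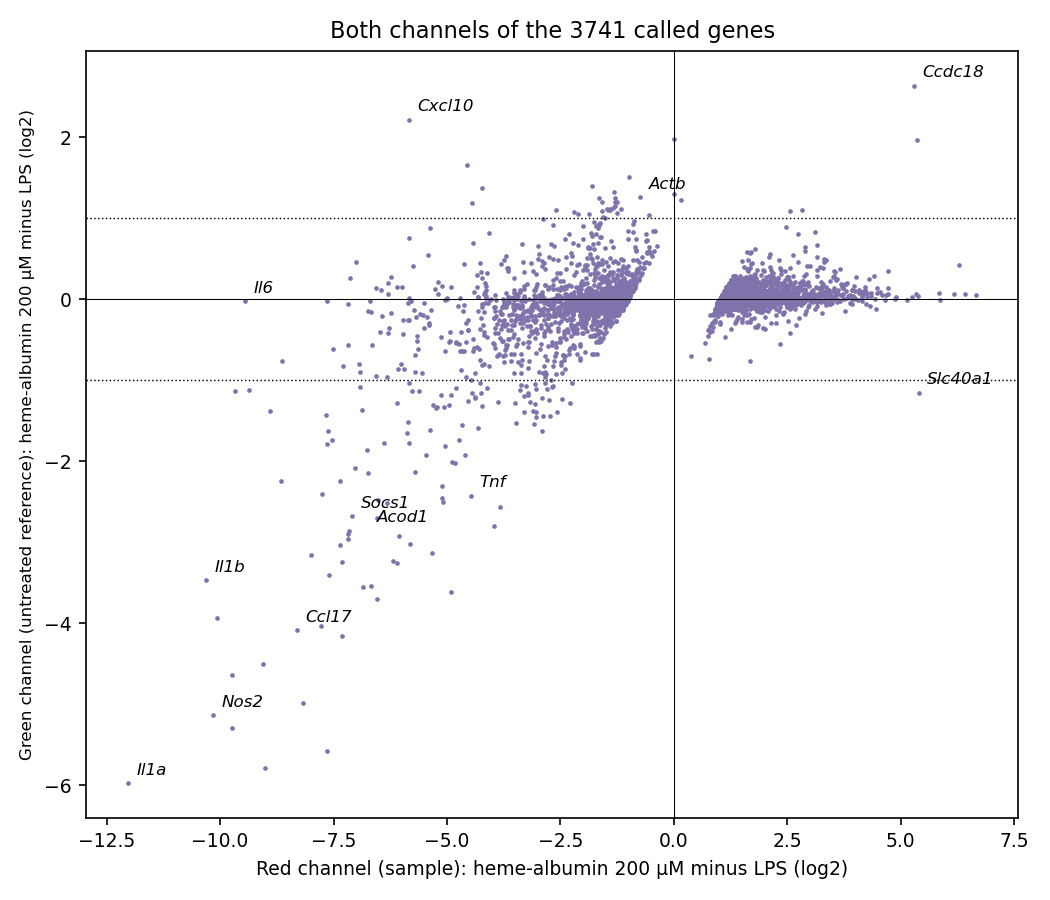
The 3741 called genes by their difference in the red channel (sample, horizontal axis, log2) and in the green channel (untreated reference, vertical axis, log2), both as heme-albumin 200 µM minus LPS; dotted lines mark 2-fold in green. Most points lie near 0 in green, while Nos2 (-10.16 red, -5.14 green), Il1a (-12.02 and -5.97) and Il1b lie low in both channels and Cxcl10 (-5.83 and 2.22) lies high in green.

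Of 20 measured chemokines, 15 of them above background on all 8 arrays, 18 were lower after heme-albumin and none higher, with a median difference of -4.73; the 2 that were not called were Ccl6 and Cxcl14. Cxcl10, the interferon-induced attractant of T cells, had 0.52, 0.77, 1.31 and 0.45 after heme-albumin against 8.18, 8.69, 9.18 and 9.18 after LPS, a difference of -8.05 ± 0.269 (SE, n = 4 and 4, adjusted p = 7.68e-08), the widest among genes above background on all 8 arrays. Ccl12 followed at -7.87 ± 0.384. The monocyte attractants Ccl2 and Ccl7 were called below control after heme-albumin and above it after LPS. Ccl7 had -3.50, -2.91, -1.39 and -1.24 after heme-albumin against 4.95, 5.12, 5.51 and 5.46 after LPS, a difference of -7.52 ± 0.496 (SE, n = 4 and 4, adjusted p = 2.76e-06). Ccl2 had -2.36, -1.83, -0.73 and -0.52 after heme-albumin against 4.79, 4.77 and 4.77 after LPS (b to d), a difference of -6.14 ± 0.438. For both genes heme-albumin replicates a and b were lower than c and d, and every one of them lay below 0 while every LPS array lay above 4. Ccl5 differed by -3.54 ± 0.207, and by -5.46 in red alone.

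NF-kB is held in the cytoplasm by inhibitors, several of which are its own targets. Of 32 genes of the pathway and its feedback, 26 were lower after heme-albumin and none higher, with a median difference of -2.02. Nfkbia, the inhibitor IkB alpha, had 1.22, 1.23, 1.41 and 1.32 after heme-albumin against 3.38, 3.36, 3.94 and 3.82 after LPS, a difference of -2.33 ± 0.142 (SE, n = 4 and 4, adjusted p = 1.77e-06). Tnfaip3, the ubiquitin-editing inhibitor A20, had 1.52, 1.71, 1.80 and 1.66 after heme-albumin against 5.04, 5.24, 6.18 and 6.41 after LPS, a difference of -4.04 ± 0.299. Both were also called above control after heme-albumin, Nfkbia by 1.36 and Tnfaip3 by 1.76, while LPS brought 3.69 and 5.81. Traf1 (-3.59 ± 0.184) and Cflar (-3.63 ± 0.134), which dampen death signals, were lower as well. Of the early AP-1, Egr and Dusp genes, 13 of 26 were lower after heme-albumin and 3 higher (13.9% and 16.3% of all tested genes were). The phosphatase Dusp2, which switches off MAP kinases, differed by -4.79 ± 0.301. Egr1 differed by -2.38 on the first scan day and -4.58 on the second, and by -1.49 over both with normexp background correction.

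NF-kB and the interferon-activated factor ISGF3 are known to bind certain short motifs. Of the measured members with a promoter window, the kappa-B core was in 4 of 17 cytokines and mediators and in 4 of 14 chemokines, and the interferon core in 15 of 30 interferon-stimulated genes and in 8 of 8 guanylate-binding proteins and GTPases. The 6 shown were picked from those that hold a match, because the results on cytokines, chemokines and interferon genes turn on them. The windows are RefSeq promoters on GRCm38.p6 (250 bases before to 50 after the start), written on the gene's strand in lower case. Capitals in Il6 and Acod1 mark the kappa-B core GGANTTTCC, and those in Ifit1 and Rsad2 the interferon response element core GAAANNGAA. In Gbp5 and Cxcl10 capitals mark 1 match of each. Both motifs were searched on both strands, and 2 of the 3 interferon matches in Ifit1 overlap.
Il6 (chr5:30013034-30013114, plus strand): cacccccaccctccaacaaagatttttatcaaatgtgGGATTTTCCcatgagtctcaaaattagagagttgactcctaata
Acod1 (chr14:103046892-103046972, plus strand): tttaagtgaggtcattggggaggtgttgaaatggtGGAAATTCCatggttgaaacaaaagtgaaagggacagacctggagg
Ifit1 (chr19:34640759-34640839, plus strand): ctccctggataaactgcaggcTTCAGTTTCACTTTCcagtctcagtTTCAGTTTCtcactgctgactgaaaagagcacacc
Rsad2 (chr12:26456522-26456602, minus strand): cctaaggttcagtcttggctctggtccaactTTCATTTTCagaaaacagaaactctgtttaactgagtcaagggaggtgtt
Gbp5 (chr3:142496754-142496884, plus strand): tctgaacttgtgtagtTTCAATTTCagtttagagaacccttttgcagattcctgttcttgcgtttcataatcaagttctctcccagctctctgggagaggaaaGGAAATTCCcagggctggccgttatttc
Cxcl10 (chr5:92349019-92349119, minus strand): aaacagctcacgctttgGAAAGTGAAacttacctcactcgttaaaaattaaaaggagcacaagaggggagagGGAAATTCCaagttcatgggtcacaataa
At least 1 window held the interferon core in 13.6% of genes lower after heme-albumin and in 6.71% of those higher, against 9.01% of all tested genes with a window. The kappa-B core was likewise in 3% of the lower and 1.19% of the higher genes, against 1.72% of all tested genes. Counted per promoter, the interferon core was in 8.56% and the kappa-B core in 1.25% of all 32851 promoters. These shares per promoter are not comparable with those per gene, because a gene can have several promoters. A match is a description of these letters and shows no binding.

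Interferon-stimulated genes, which block the copying of viruses, were lower after heme-albumin in 38 of 39 measured members and higher in none, with a median difference of -3.25; Irf9 was the 1 not called. Ifit1, whose protein binds foreign RNA, had -1.17, -1.32, -0.84 and -1.56 after heme-albumin against 5.05, 5.12, 5.78 and 5.54 after LPS, a difference of -6.59 ± 0.203 (SE, n = 4 and 4, adjusted p = 5.07e-08). Rsad2, the antiviral enzyme viperin, had -0.94, -0.72, -0.63 and -1.16 after heme-albumin against 5.94, 5.76, 5.82 and 5.83 after LPS, a difference of -6.70 ± 0.116. Both were called below control after heme-albumin, by -1.11 for Ifit1 and -1.04 for Rsad2, so they moved in opposite directions under the 2 stimuli. Over the whole list the median against control was -0.60 after heme-albumin. Ifit2 (-6.25 ± 0.139), Ifi44 (-6.37 ± 0.154) and Ifi214 (-6.58 ± 0.338) were close behind. All 14 guanylate-binding proteins and immunity-related GTPases, which attack the vacuoles of intracellular microbes, were lower after heme-albumin, with the lowest median of all lists at -4.83. Gbp5 had -0.47, -0.36, 0.32 and -0.43 after heme-albumin against 7.09, 7.18, 7.58 and 7.69 after LPS, a difference of -7.62 ± 0.21 (SE, n = 4 and 4, adjusted p = 2.97e-08). The other genes with the widest gaps on this side were Slfn4 (-7.40 ± 0.164), the activation marker Cd69 (-6.90 ± 0.241), Gbp6 (-6.63 ± 0.183) and the death ligand Tnfsf10 (-6.57 ± 0.406). Signalling members fell on the same side: 10 of 19 STAT and SOCS genes were lower and 1 higher, with Socs1 at -4.41 ± 0.118 (-7.08 in red alone) and Stat2 at -3.02 ± 0.0965.

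**Figure D3:**
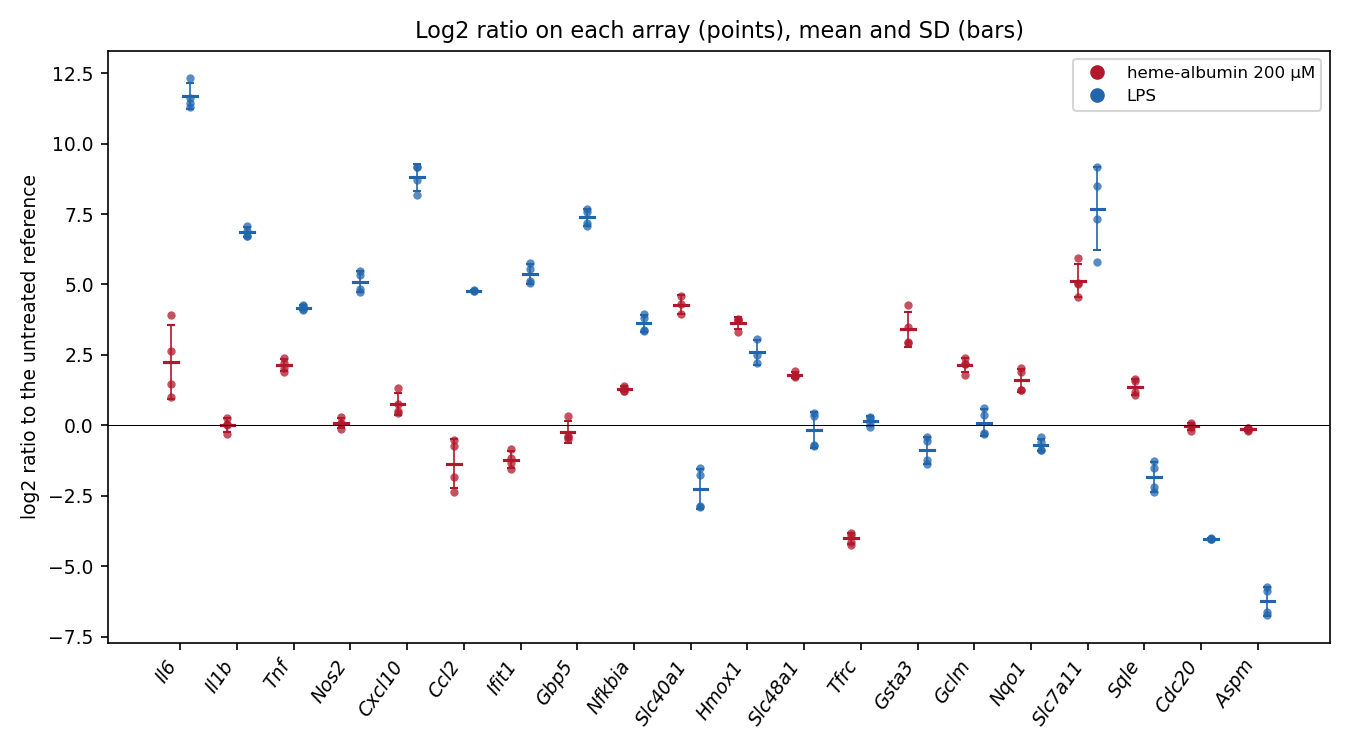
Log2 ratio to the untreated reference on each array (points), with the mean and SD (bars), for 20 genes; heme-albumin 200 µM stands left of LPS within each gene (4 arrays each, 3 where a spot was left out). The inflammatory and interferon genes from Il6 to Nfkbia are higher after LPS, the iron, NRF2, sterol and cell cycle genes higher after heme-albumin except Tfrc and Slc7a11, and only in Slc7a11 do the points of both groups overlap.

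The genes that handle heme and iron split both ways. Of 36 measured, 9 were higher and 9 lower after heme-albumin (16.3% and 13.9% of all tested genes were), and the median difference was 0.48. Slc40a1, ferroportin, the iron exporter of mammalian cells, had 3.95, 4.31 and 4.61 after heme-albumin (replicates b to d; the spot of a was an outlier and left out) against -1.52, -1.76, -2.90 and -2.86 after LPS. This was the widest gap on the higher side among genes above background on all 8 arrays, with a difference of 6.55 ± 0.384 (SE, n = 3 and 4, adjusted p = 3.82e-06), or 93.7-fold. Its 2 sides pulled apart, by 4.19 over control after heme-albumin and -2.36 after LPS. The green channel was lower by -1.15, and red alone gave 5.40; on the first scan day the difference was 5.59 and on the second 7.34. Tfrc, the transferrin receptor that brings iron in, went the opposite way. It had -4.24, -4.13, -3.81 and -3.88 after heme-albumin against -0.056, 0.26, 0.31 and 0.090 after LPS, a difference of -4.17 ± 0.123 (SE, n = 4 and 4, adjusted p = 3.94e-08), and the heme-albumin spots were above background on 3 of 4 arrays; with normexp background correction it was -1.60. Slc48a1, which moves heme out of the lysosome, had 1.93, 1.70, 1.77 and 1.76 after heme-albumin against 0.44, 0.32, -0.70 and -0.74 after LPS. No arrays overlapped, but the LPS values split by scan day, and the difference was 1.44 on the first day and 2.48 on the second.

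Hmox1, heme oxygenase, was raised strongly by both. Its log2 ratios were 3.73, 3.32, 3.76 and 3.75 after heme-albumin against 3.06, 2.22 and 2.48 after LPS (b to d, since the LPS spot of a was left out as an outlier). The groups did not overlap, and the difference of 1.05 ± 0.212 (SE, n = 4 and 3, adjusted p = 0.00281) lay just past the 2-fold limit. With the replicate letter, and so the slide, as a block it was 1.02 with an adjusted p of 0.0622, which ends the call. On the first scan day it was 0.46 and on the second 1.40, the other probe of the gene gave 0.74, and red alone gave 0.86, so the call rests on the second day and on 1 probe. Without LPS replicate c the difference was 0.863 and without LPS replicate d 0.997, which also ends the call. Blvrb, a biliverdin reductase of the next step, was not called, at 0.61 (95% interval 0.40 to 0.81). Of the ferritin chains, Ftl1 had 1.01, 0.54 and 0.83 after heme-albumin against -0.067, -0.37 and -0.40 after LPS, and Fth1 had 0.50, 0.55 and 0.79 after heme-albumin against 1.05, 0.92 and 1.04 after LPS (b to d in each case, with both spots of a left out). Ftl1 was called at 1.07 ± 0.153 and lost the call under several settings given in the closing section; Fth1, with the opposite sign at -0.39 (-0.64 to -0.14), was not called. Lower after heme-albumin were the copper oxidase Cp (-4.08 ± 0.348, with -7.32 in red and -3.24 in green) and the zinc and iron importer Slc39a14 (-2.45 ± 0.22). Flvcr2 was at least 5.15-fold lower in red, with no heme-albumin array above background, and its ratio difference of -4.05 became -1.11 with normexp. Of 9 metallothionein and zinc genes, 3 were lower and 1, the zinc importer Slc39a10 (2.02 ± 0.0958), higher (13.9% and 16.3% of all tested genes were).

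Of 37 measured NRF2 targets, 16 were higher after heme-albumin (16.3% of all tested genes were), 1 lower and 20 not called, and the median difference was 0.89. Gsta3, a glutathione transferase, had 4.27, 3.48, 2.95 and 2.93 after heme-albumin against -0.56, -0.40, -1.37 and -1.24 after LPS, a difference of 4.30 ± 0.343 (SE, n = 4 and 4, adjusted p = 8.1e-06). Nqo1, which reduces quinones, had 2.02, 1.88, 1.26 and 1.25 after heme-albumin against -0.59, -0.43, -0.88 and -0.89 after LPS, a difference of 2.30 ± 0.205. Both were called above control after heme-albumin alone, and in both heme-albumin replicates a and b were higher than c and d. The 2 subunits of the enzyme that starts glutathione synthesis moved together. Gclm had 2.19, 1.79, 2.17 and 2.40 after heme-albumin against 0.62, 0.37, -0.32 and -0.28 after LPS, and Gclc had 1.60, 1.30, 1.70 and 1.63 after heme-albumin against -0.20, -0.41, -1.52 and -1.41 after LPS. Their differences were 2.04 ± 0.233 (SE, n = 4 and 4, adjusted p = 7.09e-05) and 2.44 ± 0.303, and each was larger on the second scan day (2.58 and 3.13) than on the first (1.49 and 1.75). The carbonyl reductase Cbr3 (2.58 ± 0.257) and Ptgr1 (2.53 ± 0.135), which inactivates lipid mediators, were higher too. Srxn1, sulfiredoxin, differed by 1.29 ± 0.253, and only by 0.73 on the first scan day.

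The 1 member of the list that was lower after heme-albumin was Slc7a11, the cystine importer that feeds glutathione synthesis. It had 5.005, 5.94, 5.04 and 4.56 after heme-albumin against 9.16, 8.50, 5.79 and 7.31 after LPS. Both stimuli raised it far above control, by 4.44 after heme-albumin and 6.99 after LPS, and the difference between them was -2.55 ± 0.683 (SE, n = 4 and 4, adjusted p = 0.00876). The groups overlapped: heme-albumin replicate b lay above LPS replicate c, and LPS varied with an SD of 1.48. Slc7a11 is also on the list of the integrated stress response, in which 9 of 27 genes were lower after heme-albumin and 1 higher; the transcription factor Cebpb differed by -2.28 ± 0.11 (-1.17 in red alone) and Nupr1 by -2.22 ± 0.24. Over the glutathione and thioredoxin enzymes 5 of 23 were higher and 4 lower, not far from the 16.3% and 13.9% of all tested genes. Glrx, which removes glutathione from proteins, stood at -1.76 ± 0.128.

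Promoter windows of 4 NRF2 genes are shown to set members that differed between the stimuli (Gclm, Gsta3) beside members that both raised alike (Prdx1, Txnrd1), and all were picked from those that hold a match. Capitals mark the antioxidant response element core TGACNNNGC, searched on both strands in the same RefSeq windows.
Gclm (chr3:122245397-122245477, plus strand): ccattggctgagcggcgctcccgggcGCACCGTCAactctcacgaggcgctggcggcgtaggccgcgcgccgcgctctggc
Gsta3 (chr1:21240435-21240515, plus strand): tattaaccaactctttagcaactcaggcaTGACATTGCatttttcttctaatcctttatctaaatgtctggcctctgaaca
Prdx1 (chr4:116685439-116685519, plus strand): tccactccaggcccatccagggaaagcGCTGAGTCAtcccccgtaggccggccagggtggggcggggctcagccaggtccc
Txnrd1 (chr10:82859086-82859166, plus strand): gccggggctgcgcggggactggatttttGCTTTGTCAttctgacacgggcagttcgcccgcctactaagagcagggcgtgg
The core was in 11 of 30 measured NRF2 targets with a window. This share was not particular to them. The core was also in 7 of 19 AP-1, Egr and Dusp genes and in 8 of 23 integrated stress response genes. Other lists had a lower share, such as 6 of 30 cell cycle and mitosis genes. Over all genes, at least 1 window held the core in 17.1% of those higher after heme-albumin, 16.5% of those lower and 16.8% of all tested. Counted per promoter it was in 12.4% of all promoters. The share per promoter is not comparable with those per gene, because a gene can have several promoters.

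Some genes were moved alike by heme-albumin and LPS. A gene counted as alike when both stimuli were called against control in the same direction and the 95% interval of their difference lay within 2-fold. Of 129 genes called above control by both and 46 called below by both, 25 and 15 met this rule, 40 in all. In most of the others the LPS change was the larger: LPS was called beyond heme-albumin for 78 of the 129 and for 27 of the 46. Heme-albumin was called beyond LPS for 3 of the 129 and for none of the 46. These 3 were Hmox1, the endothelin receptor Ednrb (3.37 over control after heme-albumin and 1.27 after LPS) and Treml4 (2.78 and 1.30), the last 2 named after their values were seen. The 8 h of incubation is part of both changes against control, so a gene moved by time alone would also count as alike, and the rule was not tested against cells held for 8 h without a stimulus.

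Spic, a factor that red pulp macrophages of the spleen need and that heme is known to induce, had the highest ratio in both groups among the genes moved alike. It had 5.79, 5.69, 5.69 and 5.68 after heme-albumin against 5.90, 6.09, 5.04 and 5.34 after LPS, a difference of 0.12 (95% interval -0.37 to 0.61), with the LPS arrays on both sides of the heme-albumin ones. Under the 21 other settings run, the difference of Spic ranged from -1.08 to 0.49 and was never called. A difference of -1.08 lies beyond 2-fold, so at that end of the range Spic did not meet the alike rule. Prdx1, which removes peroxides, had 2.43, 2.08, 1.90 and 1.81 after heme-albumin against 2.30, 1.69 and 1.90 after LPS (b to d), a difference of 0.091 (-0.36 to 0.54). Txnrd1, thioredoxin reductase, had 1.75, 1.82, 2.23 and 2.02 after heme-albumin against 1.64, 1.70, 1.32 and 1.25 after LPS; the groups did not overlap, yet the interval of 0.15 to 0.80 stayed within 2-fold. Prdx1 and Txnrd1 are NRF2 targets, as are Gsr (0.36, -0.094 to 0.80) and Sqstm1 (0.080, -0.23 to 0.39). Plpp3, which removes phosphate from lipid messengers, differed by 0.27 (-0.27 to 0.81), the pump Abcc5 by 0.038 (-0.18 to 0.26), and Chac1, which degrades glutathione, by -0.47 (-0.92 to -0.024). Pla2g7, Ppfibp2, the Notch ligand Jag1 and the protease inhibitor Serpinb9 completed the 10 with the largest changes, with differences of -0.53 to 0.37.

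Among the genes lowered alike, Apoc1, an apolipoprotein, had -1.82, -1.96, -2.65 and -2.37 after heme-albumin against -1.996, -2.03, -2.08 and -2.63 after LPS, a difference of -0.017 (-0.51 to 0.47). Plau, the urokinase protease, had -2.54, -2.30, -1.09 and -1.15 after heme-albumin against -2.28, -1.85, -1.32 and -1.68 after LPS, a difference of 0.013 (-0.84 to 0.86). In Plau both groups varied together by scan day, with a and b lower than c and d. Pdgfc, a growth factor, had -0.93, -1.23, -1.92 and -1.82 after heme-albumin against -1.61, -2.26, -1.59 and -0.71 after LPS; its mean difference of 0.072 joined 0.86 on the first day to -0.72 on the second. The others with the largest changes were the integrin Itgb5, Cytip, the RNA-binding Zfp36l1, the noncoding A330009N23Rik, Hmga2, Cdk15 and the collagen Col14a1, with differences of -0.45 to 0.68. The background-corrected alternative kept fewer alike genes, 25 in all, and a limit of 1.5-fold in place of 2-fold kept 15.

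**Figure D4:**
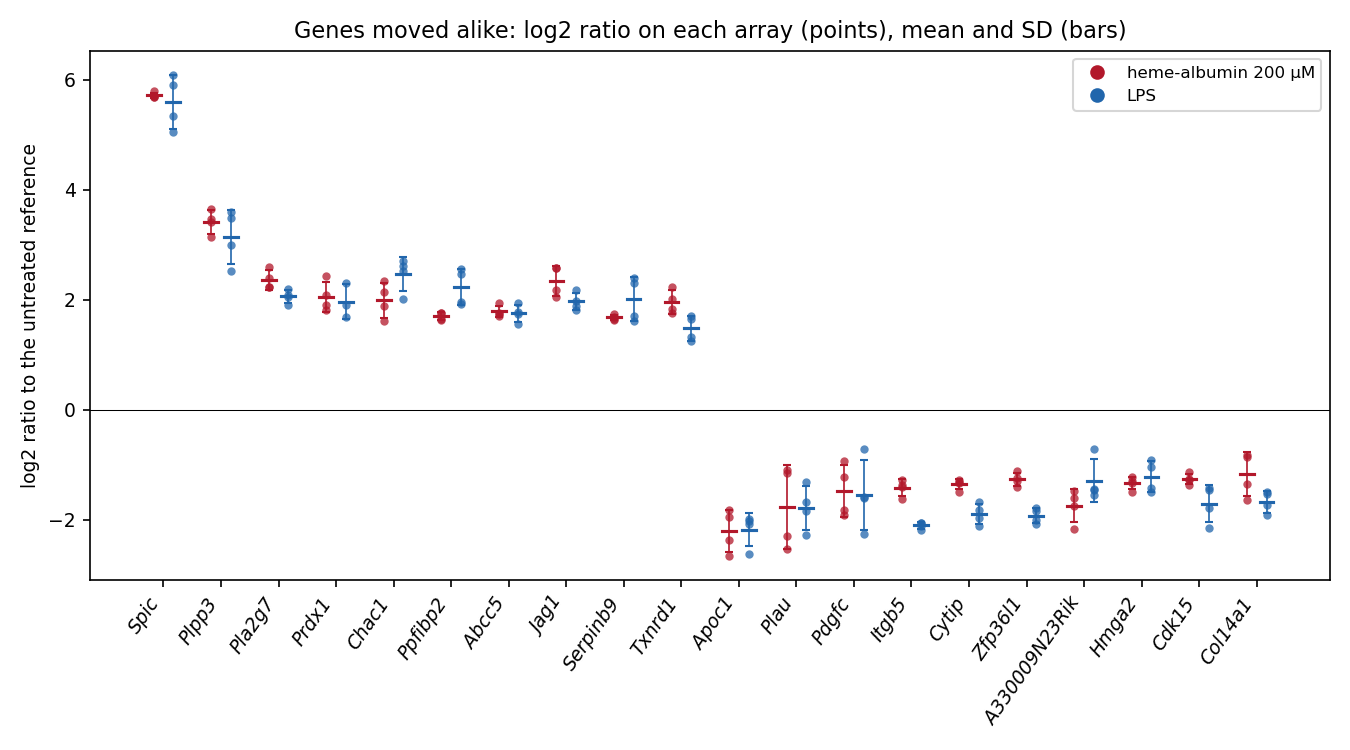
Log2 ratio to the untreated reference on each array (points), with the mean and SD (bars), for the 10 genes raised and the 10 genes lowered most among those moved alike; heme-albumin 200 µM stands left of LPS within each gene. Spic is highest in both groups (means 5.71 and 5.59), and Apoc1 is lowest in both (-2.20 and -2.18).

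In 58 genes the stimuli went opposite ways from control and differed directly: 20 were raised by heme-albumin and lowered by LPS, and 38 lowered by heme-albumin and raised by LPS. Ferroportin led the first kind. Sort1, a sorting receptor of the secretory route, had 1.95, 1.87, 1.47 and 1.60 after heme-albumin against -3.55, -3.36, -3.49 and -3.55 after LPS, a difference of 5.21 ± 0.114 (SE, n = 4 and 4, adjusted p = 1.21e-08); its second probe gave 2.04. Itga8, an integrin chain, had 1.74, 2.05, 1.69 and 1.63 after heme-albumin against -2.33, -2.05, -1.02 and -1.07 after LPS. Lrp8, a lipoprotein receptor, had 1.83, 1.92, 2.21 and 2.25 after heme-albumin against -0.42, -0.60, -1.88 and -1.72 after LPS. The LPS values of Itga8 and Lrp8 differed by scan day while their heme-albumin values did not overlap with them on either day, and the difference of Lrp8 was 3.21, or 1.48 with normexp background correction. Cdhr3 (3.50 ± 0.272, 1.11 with normexp), Fcrl1 (3.27 ± 0.0931) and the sterol enzyme Sqle were of the same kind.

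Of the second kind, Thbs1, the matrix protein thrombospondin, had -3.59, -3.78, -4.96 and -4.85 after heme-albumin against 2.91, 2.998, 1.25 and 1.66 after LPS, a difference of -6.50 ± 0.487 (SE, n = 4 and 4, adjusted p = 5.7e-06). Heme-albumin lowered it by -4.31 against control, the largest fall among the 38. Fcgr1, the high-affinity receptor for antibody, had -1.52, -1.49, -1.60 and -1.78 after heme-albumin against 3.07, 3.19, 3.14 and 3.12 after LPS, a difference of -4.72 ± 0.0778 (SE, n = 4 and 4, adjusted p = 3.77e-09), with tight replicates in both groups. Ankrd37, a target of the hypoxia factor HIF-1, differed by -3.37 ± 0.126. Dnah2, a dynein chain, differed by -7.78 on the first scan day and -5.58 on the second, and by -3.54 over both with normexp. For the interferon-inducible Ifi213 and for Tnfsf8 no heme-albumin array was above background, and in red they were at least 48.5-fold and at least 11.9-fold lower; their ratio differences of -7.11 and -4.74 became -3.39 and -1.48 with normexp. Ccl2, Ccl7, Ifit1 and Rsad2, given above, belong here as well. Under normexp background correction 19 genes remained in opposite directions, and without background subtraction 27.

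Cholesterol synthesis, run by the factor SREBP-2, was higher after heme-albumin in 14 of 25 measured genes and lower in none, with a median difference of 1.06. Sqle, squalene epoxidase, had 1.07, 1.17, 1.65 and 1.58 after heme-albumin against -1.52, -1.28, -2.18 and -2.38 after LPS, a difference of 3.21 ± 0.261 (SE, n = 4 and 4, adjusted p = 9.06e-06), and the groups did not overlap. Stard4 and the desaturase Scd2 differed strongly between replicates a, b and c, d, with 1.79 and 1.07 on the first scan day and 3.64 and 4.53 on the second. Among 15 targets of the sterol sensor LXR 1 was higher and 2 lower, a smaller share than the 30.2% called among all genes. Abca1, the exporter of cholesterol to HDL, had -1.49, -1.62, -1.67 and -1.59 after heme-albumin against 1.30, 1.26, 0.16 and 0.57 after LPS, a difference of -2.42 ± 0.245 (SE, n = 4 and 4, adjusted p = 3.36e-05), and it was called below control after heme-albumin.

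The genes of mitosis had the highest median of all lists. Of 36 measured, 32 were higher after heme-albumin and 2 lower (Pttg1 and Ccnd1), with a median difference of 2.75. Against control the list's median was -0.11 after heme-albumin and -2.90 after LPS. Cdc20, the activator of the anaphase-promoting complex, had -0.0025, 0.083, -0.19 and -0.050 after heme-albumin against -4.02, -4.05, -4.05 and -4.01 after LPS, a difference of 3.99 ± 0.0692 (SE, n = 4 and 4, adjusted p = 4.32e-09). Aspm, a spindle pole protein, had -0.17, -0.11, -0.21 and -0.081 after heme-albumin against -6.74, -6.63, -5.75 and -5.87 after LPS (above background on 3 of 4 LPS arrays), a difference of 6.11 ± 0.225. Both lay at the level of the untreated reference after heme-albumin. Aurkb was not above background on any LPS array and was at least 6-fold higher in red after heme-albumin (ratio difference 4.12, or 1.41 with normexp). Nek2 (3.92 ± 0.173), the kinase Pbk (4.12 ± 0.273) and Depdc1b (4.11 ± 0.128) were similar. Of 29 genes of replication and DNA synthesis 19 were higher and 1 lower. Rrm2, a subunit of the enzyme that makes DNA building blocks, had -0.24, -0.027, -0.091 and -0.033 after heme-albumin against -5.003, -5.11, -4.02 and -3.89 after LPS, a difference of 4.41 ± 0.281. The exception, Tyms, thymidylate synthase, had 0.11, 0.17, 0.039 and 0.34 after heme-albumin against 3.20, 2.85, 2.75 and 2.98 after LPS, a difference of -2.78 ± 0.11 (SE, n = 4 and 4, adjusted p = 1.88e-07), on 1 probe. The cohesin enzyme Esco2 was at least 22.8-fold higher in red (ratio difference 5.86, or 2.69 with normexp). In a bulk culture, fewer dividing cells and less of these RNAs per cell cannot be told apart. Targets of p53 split, with 6 of 15 higher and 3 lower (16.3% and 13.9% of all tested genes were). Trp53inp1 differed by 3.04 ± 0.246 and the death receptor Fas by -2.20 ± 0.17.

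Toll-like receptors and their adaptors sense molecules of microbes, and 12 of 22 measured were lower after heme-albumin and 1 higher, with Nod2 at -3.64 ± 0.105, Nod1 at -3.28 ± 0.196 and Tlr3 at -3.16 ± 0.206. Cd14, the LPS coreceptor, had -0.65, -0.62, -0.33 and -0.40 after heme-albumin against 3.07, 2.21 and 1.99 after LPS (b to d), a difference of -2.93 ± 0.249, or -1.87 in red alone. Of 23 inflammasome and cell death genes 12 were lower and 2 higher; Casp4, the mouse caspase-11 that senses LPS inside the cell, differed by -4.07 ± 0.199. Of 22 genes of MHC class I presentation and costimulation 16 were lower and 1 (Cd80) higher. Cd40 differed by -4.30 ± 0.243, with -7.15 in red and -2.86 in green, and the peptide transporter Tap1 by -3.004 ± 0.104. Of MHC class II, 1 of 9 members was called, H2-Ab1 at -1.25 ± 0.215, and on the second scan day it was under 2-fold at -0.78. The 4 members of the proteasome list with the widest gaps were the immune subunits Psmb10 (-2.78 ± 0.0656), Psmb9 and Psmb8 and the activator Psme2 (-2.49, or -0.98 in red alone), while 25 of its 36 members were not called. Among Fc, complement and scavenger receptors 10 of 24 were lower and 1 higher, with the lectin-like scavenger receptor Olr1 at -4.49 ± 0.607 (-2.36 with normexp) and Fcgr2b at -3.74 ± 0.109. The heme-albumin spots of Olr1 were above background on 2 of 4 arrays.

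Of 27 genes of macrophage identity 5 were higher after heme-albumin, near the 16.3% of all tested genes. Another 9 were lower, against 13.9% of all tested genes. Csf1r, the receptor for the macrophage growth factor, was not called, at 0.81 (0.57 to 1.06). Cebpa, a myeloid transcription factor, differed by 2.87 ± 0.185, and its mean ratio was -0.48 ± 0.313 after heme-albumin and -3.35 ± 0.276 after LPS (SD, n = 4 each). Slco2b1, an anion carrier, was called below control by both stimuli and further by LPS. It had -2.80, -2.68, -2.95 and -2.42 after heme-albumin against -5.37, -5.54, -5.12 and -4.90 after LPS (above background on 3 of 4 LPS arrays), a difference of 2.52 ± 0.16, or 1.38 without background subtraction. On the list of alternative activation, known from interleukin 4, 3 of 14 measured genes were higher and 7 lower (16.3% and 13.9% of all tested genes were). Above background on all 8 arrays were 9 of the 14. Clec10a, a sugar-binding lectin, had 3.15, 3.41, 2.92 and 2.66 after heme-albumin against -0.50, -0.59, 0.015 and -0.38 after LPS, a difference of 3.40 ± 0.185 (SE, n = 4 and 4, adjusted p = 9.4e-07), and was called above control after heme-albumin alone. Arg1, arginase, went the other way, with -1.10, -1.44, -1.55 and -1.24 after heme-albumin, above background on 2 of 4 arrays, against 4.60, 4.77, 2.87 and 3.01 after LPS, a difference of -5.15 ± 0.445, or -3.34 with normexp. Ccl22 was at least 17.2-fold lower in red after heme-albumin (ratio difference -5.003, or -2.09 with normexp).

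Glycolysis and hypoxia genes were lower after heme-albumin in 17 of 32 members and higher in 1. Pfkfb3, whose product speeds glycolysis, had 0.051, 0.088, -0.079 and 0.21 after heme-albumin against 4.40, 4.18, 4.72 and 5.001 after LPS, a difference of -4.51 ± 0.169 (SE, n = 4 and 4, adjusted p = 1.42e-07). The sugar carrier Slc2a6 (-2.68 ± 0.0963) and the vessel growth factor Vegfa (-2.36 ± 0.157) were lower too. Of 26 heat shock genes 7 were lower and none higher (13.9% and 16.3% of all tested genes were). The widest gaps were those of Hspa1a (-3.23 ± 0.0801, -5.05 in red alone) and Dnaja1 (-2.90 ± 0.0961). Among 24 endoplasmic reticulum chaperone genes only Hspa5 was called, at -1.72 ± 0.116, and in red alone its difference of -0.90 was under 2-fold. Of 34 lysosome and autophagy genes 5 were higher and none lower, a smaller share than the 16.3% called higher among all genes, with the lipase Lipa at 2.07 ± 0.158.

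Genes of the ribosome and the respiratory chain were rarely called. None of 36 cytosolic ribosomal proteins was called under limma's test with the 2-fold limit, and their differences ran from -0.25 to 0.63. Their median was 0.20, and in 24 of the 36 the groups did not overlap, as in 71.7% of all tested genes. They were thus small differences rather than none. Of 35 respiratory chain genes 1 was called, the cytochrome Cycs (-2.21 ± 0.17), and the list's median was 0.077. Of 15 common housekeeping genes 3 were lower after heme-albumin (13.9% of all tested genes were) and none higher. Actb, the actin often used as a standard, had -0.20, -0.24, 0.012 and 0.017 after heme-albumin against 1.94, 1.96 and 1.80 after LPS (b to d), a difference of -2.001 ± 0.0944, with 1.26 of the opposite sign in green. B2m, the light chain of MHC class I, differed by -1.21 ± 0.0867. In red alone both were under 2-fold, at -0.74 for Actb and -0.92 for B2m, while Hprt stood at 0.88 (0.65 to 1.12) and was not called.

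**Figure D5:**
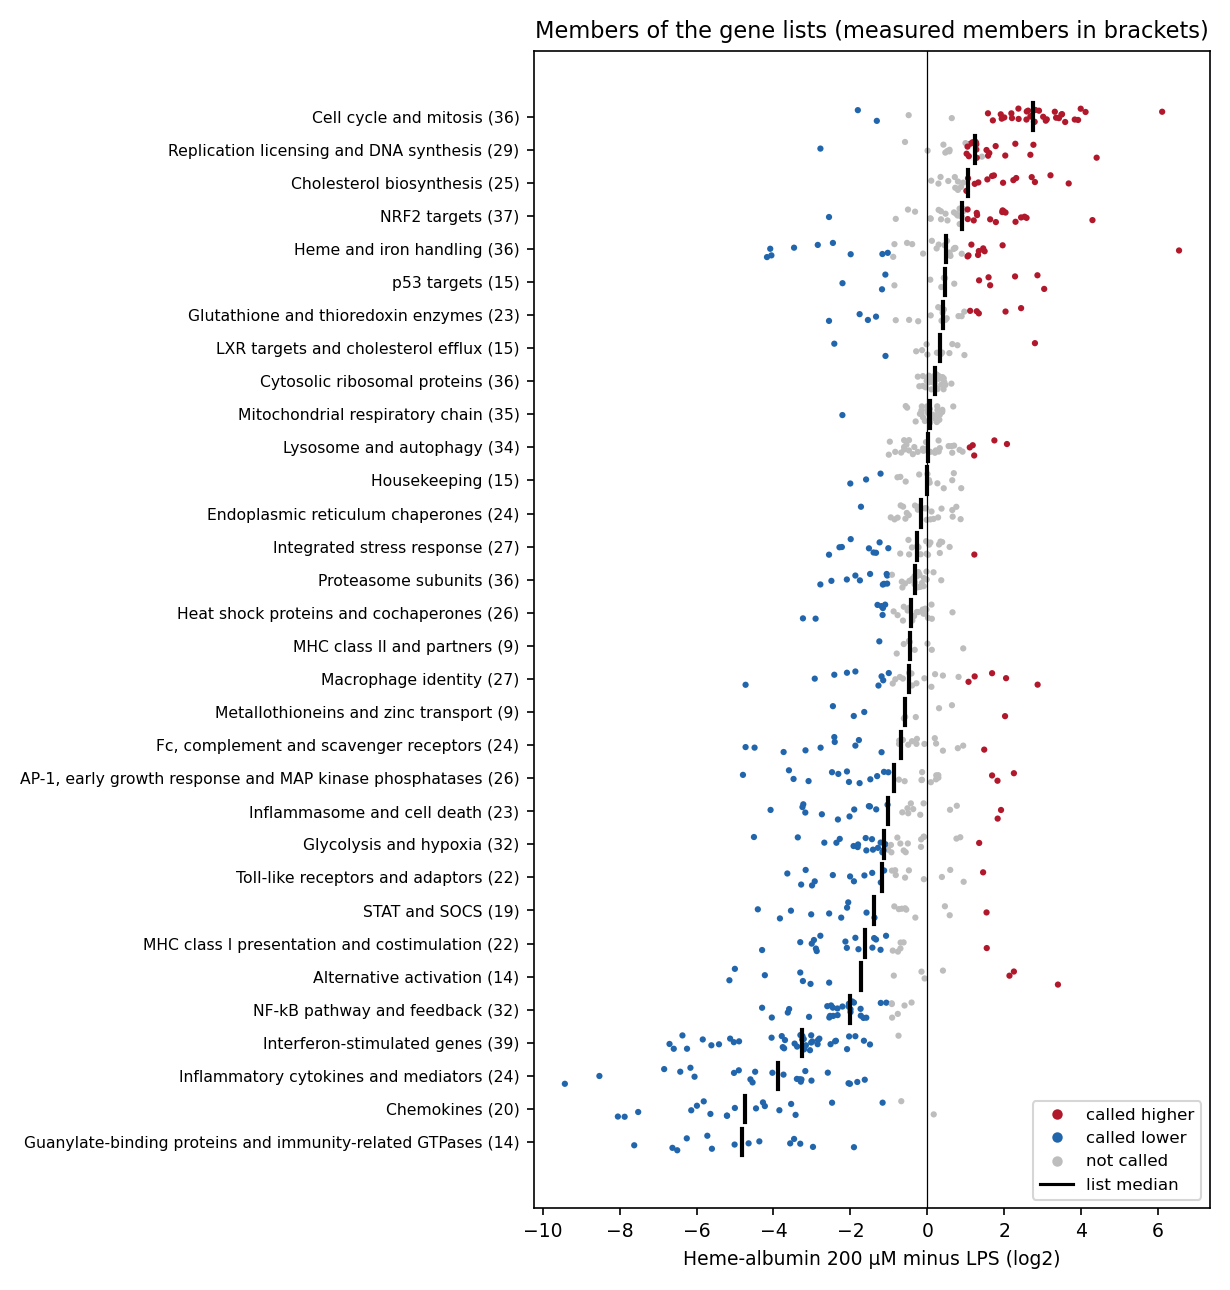
Difference heme-albumin 200 µM minus LPS (log2, horizontal axis) of each measured member of 32 gene lists, sorted by the list median (black bar); red points were called higher, blue lower and grey not called. Mitosis, replication, cholesterol synthesis and NRF2 targets stand at the top (medians 2.75 to 0.89). The ribosomal list runs from -0.25 to 0.63, and the respiratory list from -2.21 (Cycs) to 0.68. Interferon, cytokine, chemokine and guanylate-binding protein lists stand at the bottom (-3.25 to -4.83).

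Further genes with the widest gaps on the higher side belong to no list. Bmf, which promotes cell death, had 0.63, 0.51, 0.25 and 0.34 after heme-albumin against -4.20, -4.20, -4.67 and -4.69 after LPS, a difference of 4.87 ± 0.148 (SE, n = 4 and 4, adjusted p = 4.71e-08). Angptl4, an inhibitor of lipoprotein lipase, had 0.62, 0.46, 0.75 and 0.73 after heme-albumin against -3.90, -3.94, -4.12 and -4.07 after LPS, a difference of 4.64 ± 0.0876. In both the LPS arrays lay near -4 and the heme-albumin arrays close to the untreated reference. Rasgrp3, a Ras activator (4.66 ± 0.148), Cdc42ep3 (4.29 ± 0.167) and the DNA glycosylase Neil3 (4.12 ± 0.199) had the same form. St6gal1, a sialic acid transferase, gave 4.07 ± 0.137 on its chosen probe and 0.53 on the other, so its size depends on the probe. In red signal Skint3 was at least 29.6-fold higher, Slc22a23 at least 24.3-fold, Depdc1a at least 21.2-fold and Lrrc17 at least 10.5-fold, each with no LPS array above background. Their ratio differences were far smaller with normexp, where Skint3 had 2.32 in place of 6.35, Slc22a23 1.25 in place of 5.87, Depdc1a 2.37 in place of 5.35 and Lrrc17 1.67 in place of 4.42. Ccdc18 had a ratio difference of 2.65, with 5.29 in red and 2.64 in green; heme-albumin replicate a stood apart from b, c and d for it in both channels, and the difference was 0.13 with normexp. On the lower side the ratio of Gfi1 differed by -4.93, with -7.02 in red and -2.09 in green, and that of the lipase Lipg by -4.84, with -7.996 in red and -3.15 in green. Shisa3 differed by -5.87, or -3.48 with normexp. No heme-albumin array was above background for these 3 genes.

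Markers of other cell types were in part above background in both groups. Of mast cell markers 3 of 5, of lymphocyte markers 3 of 5, and of embryonic stem cell markers 3 of 6 (Pou5f1, Sox2 and Zfp42) were above background on none of the 8 arrays. In the same lists Tpsb2, Cd3e and Nanog were above background on all 8. So was Siglech of the dendritic cell list, whose 6 members summed in red to 3072 to 16188 after heme-albumin and 1851 to 15584 after LPS. Neutrophil markers were the brightest of these lists: 4 of 6 were above background on all arrays, and their summed red signal was 16380 to 30697 after heme-albumin against 18618 to 24891 after LPS, ranges that overlap. The macrophage markers summed to 68973 to 114349 after heme-albumin against 120721 to 196836 after LPS. This sum holds 7 of the 9, without Csf1r and Cd14, whose LPS spot of a was left out. Of 8 tested macrophage markers 3 were lower after heme-albumin, among them Fcgr1 (-4.28 in red), and 1, Lyz2, was higher (1.07). The sum is therefore no measure of macrophage number. Of 5 endothelial markers 3 were measured, and 2 were lower after heme-albumin. Pecam1 differed by -1.44 ± 0.114 and Cdh5 by -2.26 ± 0.144, both under 2-fold with normexp (-0.75 and -0.99), while Kdr was not called on its chosen probe (-0.54, against -3.86 on the other), and Tek and Emcn were above background on no array. Of 6 fibroblast markers 2 were measured: Dcn was at least 11.0-fold lower in red after heme-albumin (ratio difference -4.40, or -1.81 with normexp), Col1a2 was not called (-0.28), and Col1a1 and Pdgfra were above background on none. The part of other cells in the results was not tested.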

How the data were processed

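Macrophages grown from mouse stem cells were measured on 2-colour Agilent arrays. Per the file headers, Agilent Feature Extraction 10.7.3.1 subtracted background and normalised dyes by a linear and lowess fit; the deposited LogRatio is log10 of red (Cy5, sample) over green (Cy3, untreated reference), and the deposited processed signals are intensity values per spot. The authors' deposited value table holds the same log10 ratios and was used as a check only.

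Log10 ratios as deposited were turned into log2 ratios, without control spots or those the scanner software marked as outliers, and spots of a probe were averaged. All non-control probes were tested once, and the gene results use probes whose red signal was well above background throughout at least 1 of the 2 groups. The probe with the highest mean signal stands for a gene, named by the array's symbol updated through RefSeq accessions. Differences come from limma 3.58.1 (R 4.3.3; lmFit and eBayes, Benjamini-Hochberg adjustment over all genes) on the 8 arrays of both groups; values against control come from 1 fit of all 16. The control arrays held untreated RNA in both colours, and their median SD over genes was 0.0692, against 0.0962 after heme-albumin and 0.171 after LPS. The fit of all 16 pools the spread of all groups. Calls against control, and with them the alike and opposite counts, rest in part on that narrower spread. Figures used matplotlib 3.10.9.

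In data made from these arrays' spread, 100 of 100 probes changed by 3 (log2) and 88 of 100 changed by 1.5 were recovered among 19931, and 5 of 19731 unchanged ones were called. The made noise was independent between arrays, without the scan day and replicate letter structure of the real ones. These rates therefore check the procedure and need not hold for the real arrays.

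Members and gene lists were chosen with earlier results of these data known. Genes named are fixed ones, the 12 widest gaps each way above background on all 8 arrays, the 6 largest bounds each way, up to 4 members of each list, 10 genes each way moved alike and 8 of each opposite kind; other list members named without a value of their own, and those said to be, were chosen after their values were seen. Some genes the rule names are not reported here. Bounds ("at least") set the bright group's red signal, scaled between arrays, against the lowest signal above background. Replicate letters, each on a slide of its own, were not used as a block in the fit as reported. The number of arrays limits the precision.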

Additional observations from a re-analysis of the deposited data

Results flagged for a closer look

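In 18 of 392 groups of 4 arrays tested over the 210 genes named by the rule, 1 array stood apart from the other 3 by Dixon's test at its 95% critical value. Chance flags about 1 in 20 groups, so this number is near what chance gives, and no explanation is weighed here.

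After heme-albumin, Hmox1 in replicate b was 3.32 (others 3.73 to 3.76), Spic in a 5.79 (5.68 to 5.69), Vegfa in a -1.78 (-1.88 to -1.87), Dnajb6 in a 0.202 (0.128 to 0.132), Zbp1 in d -0.984 (-0.714 to -0.659) and Ccdc18 in a -2.30 (-0.262 to 0.146). Replicate c was the one apart for H2-Ab1 at 0.421 (0.158 to 0.200), Gbp5 at 0.325 (-0.474 to -0.364), Gbp4 at 1.09 (-0.036 to 0.068) and Slc39a10 at 0.789 (0.534 to 0.561). For Edn1 (c, 0.0064), Shisa3 (c, 0.124) and Ccl22 (b, -0.188) the others are listed at 0. Such a ratio of exactly 0 occurred on at least 1 heme-albumin array in 129 genes, 127 of them called lower, against 6 genes on LPS arrays, and none of these spots was above background in either channel.

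After LPS, Olr1 in a was 4.64 (others 5.96 to 6.18), Ccl17 in c 4.20 (4.50 to 4.54), Hba-a1 in b 0.850 (0.454 to 0.512), Apoc1 in d -2.63 (-2.08 to -1.996) and A330009N23Rik in b -0.713 (-1.56 to -1.44).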

How the results depend on the processing

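Of the counts, those of genes called different and lower stayed within 1.5 times under every setting run on the filtered genes. Normexp background correction with loess gave 2826 called genes, of which 1328 were higher (2018 as reported), 25 alike and 19 opposite (40 and 58 as reported, 18 of each shared); without background subtraction 27 were opposite, 26 of them shared. An interval within 1.5-fold left 15 alike, and all non-control probes gave 6367 called, 3354 higher and 3013 lower; the background alternatives also changed the normalisation to loess, and the cause of the changed counts was not tested. Leaving out 1 array gave 3586 to 3889 called genes, 1927 to 2105 higher, 1659 to 1784 lower, 31 to 41 alike and 53 to 61 opposite. The share of calls that were higher ran from 47.0% to 55.1% (53.9% as reported), and centring arrays on their median gave 1845 higher and 1839 lower. A called gene ended on the other side in 1 case, under the median over a gene's probes. The median of the respiratory chain list turned from 0.077 to -0.013 under both background alternatives.

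Same-lettered arrays deviated together with correlations of 0.239, 0.089, 0.185 and 0.123 (a to d), and 3 of 4 correlated best with their own letter; b correlated more with another (0.106). Same-lettered arrays shared a slide, so the block by letter is also the block by slide. The labels do not say what else a letter shares, and the fit as reported has no block. With the replicate block 3749 genes were called, 3739 of them shared; Hmox1 then had a difference of 1.02 and an adjusted p of 0.0622.

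Among the 159 called genes named, 26 shrank by more than 1.5 times under normexp and 23 without background subtraction; in red alone 7 shrank and 14 grew; leaving out 1 array moved none that far. Hmox1 lost its call under 8 settings, Ftl1 under 5 (0.38 in red alone), Srxn1 and Lyz2 on the first scan day and H2-Ab1, Nr1h3 and Adgre1 on the second. Zbtb46, a dendritic cell marker not called here (-1.20), was called under 8. Of the tested genes, 185 had no array above background in 1 group, which limits their sizes to bounds in red.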
